A study of Mus musculus with 9 samples.

Results

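Called insertion sites of the Lazy Piggy transposon inside introns were described for every chromosome of the table other than 7, 10, 13, X and Y. They were 676 sites, or 29.3% of the 2311 sites called in all, and lay in introns of 591 genes. A site was called where a tumour had at least 10 counts in the libraries of the Sleeping Beauty (SB) ends and at least 1% of the count of that tumour's highest site, after positions within 10 bp were joined. A site called in several tumours was credited to the tumour in which it held the highest share. The SB end counts and the listed gene part thus chose the sites, so their number and height as such are a description. Tests on number and share below compare arms or donor chromosomes, which the choice of sites did not use. On the same chromosomes 1336 sites were called, of which 50.6% were intronic, 240 had no listed gene, 204 were upstream, 180 were downstream and 36 were exonic.

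The mice carried a mobile element built from SB and piggyBac (PB) parts and had developed medulloblastoma of the sonic hedgehog (SHH) type, a tumour of the cerebellum. Tumours of 72 mice given tamoxifen (TAM+) were set against those of 47 mice not given it (TAM-). The sample sheet lists 4 to 249 days for the TAM+ mice (median 49.5), without saying what the days count. Under local chromosome, taken here as the donor the element left, it lists chromosome 10 for 53 TAM+ and 37 TAM- mice and chromosome 7 for 19 TAM+ and 10 TAM- mice. All mice share the genotype lazy_piggy, while the sources used here do not say which promoters drive either transposase, nor the other alleles, strain or age. IR libraries were amplified from the left (IRL) and right (IRR) SB ends, JX libraries from the boundary of the SB and PB parts, and PB libraries from the PB ends. IR counts per mouse ranged from 295999 to 6337624 with tamoxifen (median 3115243) and from 1236372 to 5553180 without (median 3143569). Counts lack molecular identifiers, so intervals given below cover counting error only. Coordinates are in mm9.

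SB transposase cuts the element out at its SB ends and pastes it elsewhere, most often close to the place it left, while PB transposase recognises the PB ends. Inside an intron, a transposon with splice signals can trap the transcript of its host gene and end it early, and one that carries a promoter can start a transcript when it points along the gene. Screens of this kind read genes hit in many tumours, or sites that hold a large share of a tumour's reads, as candidates for a role in the tumour. No site sequence is shown, because no genome of the files' build was given.

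Some libraries stood apart. TAM+ tumour 46, of lane 2, had 147 of the 676 sites (21.7%), and the next tumours had 34 and 30. It had the fewest IR counts of all tumours compared (295999), its highest site held only 6.33% of them, and its intronic sites had a median of 344 counts, against 31221 in the other tumours. Counts came from 1 SB end alone at 122 of its 147 sites, against 45 of the 529 sites of the other tumours. Of its 147 sites, 60 also had IR counts within 10 bp in TAM- tumour 12 of the same lane, and the next tumour shared 12. The part of depth in these values was not tested.

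In lane 1, sites came in pairs at a fixed spacing. Within 1 kb of each other in a tumour lay 16 pairs of intronic sites, and 12 of these pairs were exactly 117 bp apart, all in 5 tumours of lane 1. Over all called sites 29 of 49 such pairs had this spacing, again in lane 1 alone. Of the 12 pairs, 10 had the left end at a position and the right end at its partner with the same orientation, and the other 2 had the same end at both positions in opposite orientations. In Dhx40, which encodes an RNA helicase, TAM+ tumour 8 had 197571 IRL and 11 IRR counts at position 86592612 of chromosome 11 and 501 IRL and 338962 IRR counts at 86592729. IR counts exactly 117 bp away were found for 70 of the 121 intronic sites of lane 1 and for 1 of the 555 sites of the other lanes. A distance 1 bp shorter gave 28 sites in lane 1 and 0 in the other lanes, and a distance 1 bp longer gave 2 and 1. The origin of the spacing was not tested. With each pair counted once, 664 sites remain.

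Intronic sites were found in 66 of 72 TAM+ tumours and in 44 of 47 TAM- tumours. The TAM+ tumours had 6.35 ± 17.7 sites each (SD, median 2.5, 0 to 147, n = 72) and the TAM- tumours 4.66 ± 5.14 (median 3, 0 to 30, n = 47). The groups overlapped almost entirely, and the means did not differ beyond the spread between tumours (two-sided permutation test, p 0.741, adjusted p 0.808 over 7 tests between arms). Without tumour 46 the TAM+ mean was 4.37 ± 5.43, below the TAM- mean (p 0.783). Intronic sites held 20.2 ± 17.7% of the IR counts of a TAM+ tumour and 21.5 ± 14.8% of those of a TAM- tumour (permutation p 0.667, adjusted p 0.808). Of the called sites of a tumour on these chromosomes, 52.1 ± 24.2% were intronic with tamoxifen (n = 68) and 49.9 ± 26.2% without (n = 47, permutation p 0.642, adjusted p 0.808).

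**Figure D1:**
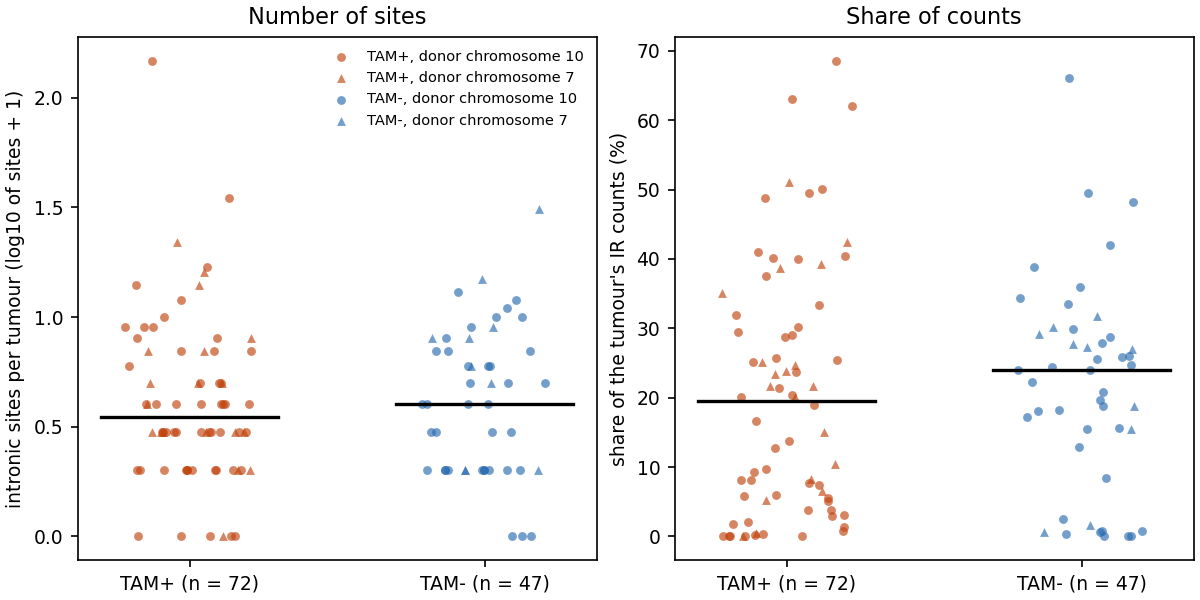
Intronic sites per tumour (left, log10 of sites + 1) and their share of the tumour's IR counts in percent (right), for TAM+ and TAM- tumours. Each point is a tumour, circles have donor chromosome 10 and triangles 7, and lines are medians. The arms overlap in both plots, and the point with 147 sites is TAM+ tumour 46.

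Intronic sites ranged from minor insertions to the highest site of a tumour. The median site held 0.478% of its tumour's IR counts (range 0.0499% to 68.6%), and 406 of the 676 sites held under 1%. Without TAM+ tumour 46 the median was 1.06%, and 260 of the 529 sites held under 1%. A share of at least 10% was held by 80 sites, 45 of them in 34 TAM+ tumours and 35 in 28 TAM- tumours. In 34 tumours, 20 TAM+ and 14 TAM-, the highest site of the whole tumour was an intronic site credited to it. Before sites were credited, the highest site was intronic on these chromosomes in 45 tumours, and in 14 of these it lay in En2. With TAM+ tumour 46 included, as in the median of 0.478%, the other called sites of these chromosomes had a median share of 0.702%. Of those other sites 67 held at least 10%.

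The 3 leading sites each held over 50% of the IR counts of their tumour. The highest share, 68.6% (95% Wilson interval 68.5% to 68.7%), lay in intron 3 of Hyal5, a hyaluronidase gene known from sperm, at position 24829082 of chromosome 6 in TAM+ tumour 57. It had 633955 IR counts, pointed opposite to the gene, and had 3056 JX counts but no PB count within 100 bp. Next came intron 17 of Utp6, whose product takes part in making the small ribosomal subunit, with 66.1% (66.0% to 66.2%) in TAM- tumour 34 at position 79754113 of chromosome 11. The Utp6 site had 2610 JX and 120 PB counts. Intron 7 of Plcg2, which encodes a phospholipase C of immune cell signalling, held 62.3% (62.3% to 62.4%) in TAM+ tumour 65 at position 120093024 of chromosome 8. The Plcg2 site had 2617 JX counts but no PB count. Each of these 3 genes had intronic sites credited to 1 tumour alone. The Utp6 site was called in 2 tumours, and tumour 34 held 99.1% of its counts over all tumours.

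Of the next leading sites, those in En2 and Pard3b are described below, and those in Alx4, Cdh7 and Prdm16 had JX and PB counts. Intron 1 of Alx4, a homeobox gene of skull and limb development, held 48.2% in TAM- tumour 33 at position 93507315 of chromosome 2, along the gene. It had 2094217 IR counts, of which 34.3% came from the lesser end, 73227 JX counts and 186690 PB counts, so that all 3 kinds of library found it. In TAM+ tumour 24, intron 2 of Cdh7, which encodes a cadherin adhesion molecule, held 38.3% at position 111903665 of chromosome 1, against the gene, with 135061 JX and 104166 PB counts. Intron 2 of Prdm16, which encodes a zinc finger transcription regulator, held 35.3% in TAM+ tumour 13 at position 153897546 of chromosome 4, along the gene, with 8267 JX and 3540 PB counts.

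In TAM+ tumour 50, 2 of the leading sites lay in intron 1 of their genes. Pank1, a pantothenate kinase gene of coenzyme A synthesis, held 33.1% at position 34920149 of chromosome 19, against the gene, with 9776 JX and 10913 PB counts. Cnot6, which encodes a deadenylase of the CCR4-NOT complex, held 27.8% at position 49516648 of chromosome 11, along the gene, with 3060 JX and 2707 PB counts. Intron 2 of Tnr, which encodes the brain matrix protein tenascin-R, held 29.1% in TAM+ tumour 43 at position 161726320 of chromosome 1, along the gene, with 137369 JX but only 10 PB counts. Intron 2 of Sgcd, which encodes a sarcoglycan of the muscle membrane, held 27.0% in TAM- tumour 11 at position 47159176 of chromosome 11, against the gene, with 212991 JX and 215007 PB counts. The Sgcd tumour was the only one of these with donor chromosome 7, and in it and in tumour 50 for Cnot6 another site stood higher. The leading sites in Pard3b, Prdm16, Pank1, Tnr and Cnot6 were each called in 2 tumours. The tumour credited held 98.6% to 99.3% of the counts of each over all tumours.

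Recurrence among the 591 genes was low. Sites of 545 genes were credited to 1 tumour, of 40 genes to 2 tumours, of 5 genes to 3 and of En2 to 6. Without TAM+ tumour 46, 32 of the 46 genes with sites in at least 2 tumours were left. Of the 45 such genes other than En2, 23 had sites in TAM+ tumours alone, 6 in TAM- tumours alone and 16 in both, with more TAM+ than TAM- tumours in the study. The closest sites of different tumours lay within 10 kb of each other in 11 of these 45 genes, and the median distance was 36030 bp. All sites pointed the same way in 24 of the 45.

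Whether tamoxifen changed which genes were hit was tested per gene, by two-sided Fisher's exact tests on tumours with a credited intronic site. Over all chromosomes 23 genes had such sites in at least 3 tumours, 6 of them genes described here, and 0 (0%) passed an adjusted p of 0.05. At an unadjusted p under 0.05 the count was also 0. The lowest p among those 6 was that of Dner, with 3 TAM+ tumours and 0 TAM- tumours (Fisher's exact p 0.277, adjusted p 0.796). Bai3 had 1 TAM+ and 2 TAM- tumours (Fisher's exact p 0.561, adjusted p 0.993), and En2, Pard3b, Enox1 and Rbfox1 had a p of 1. A gene with sites in 3 tumours, all of them TAM-, cannot go below 0.0592 in this design.

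The 5 genes with sites in 3 tumours were Pard3b, Enox1, Rbfox1, Bai3 and Dner. Pard3b, which encodes a polarity scaffold, had 37.5% of the IR counts in TAM+ tumour 62 and 0.0568% in TAM+ tumour 3, against 18.5% in TAM- tumour 5. The sites of tumours 62 and 5 lay 39860 bp apart in intron 18 and pointed along the gene, while that of tumour 3 lay in intron 2 and pointed against it. Enox1, an oxidoreductase gene of the cell surface, had shares of 17.7% and 0.818% in TAM+ tumours 49 and 71, 3054 bp apart in intron 16, and of 0.800% in TAM- tumour 26, all along the gene. Rbfox1, a neuronal splicing regulator, had 0.381% and 0.295% in TAM+ tumours 46 and 40 and 11.02% in TAM- tumour 39, all along the gene. Pard3b, Enox1 and Rbfox1 thus each had at least 1 site of over 10% and at least 1 of under 1%.

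Bai3 (now Adgrb3), an adhesion receptor of synapses, had sites of 2.59% and 0.0635% in TAM+ tumour 46 and of 6.42% and 5.37% in intron 2 in TAM- tumours 43 and 14. Dner, a Notch-like transmembrane protein of cerebellar neurons, had 5 sites in TAM+ tumours 16, 46 and 47, of 0.0652% to 2.16%. The pair of Dner sites in tumour 16, with 2.16% and 1.22%, is spaced by 117 bp in lane 1, and the sites in tumour 46 had no JX or PB count within 100 bp. Dner therefore had only 1 site outside tumour 46 and the spaced pair, of 1.52% in intron 2 of TAM+ tumour 47.

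**Figure D2:**
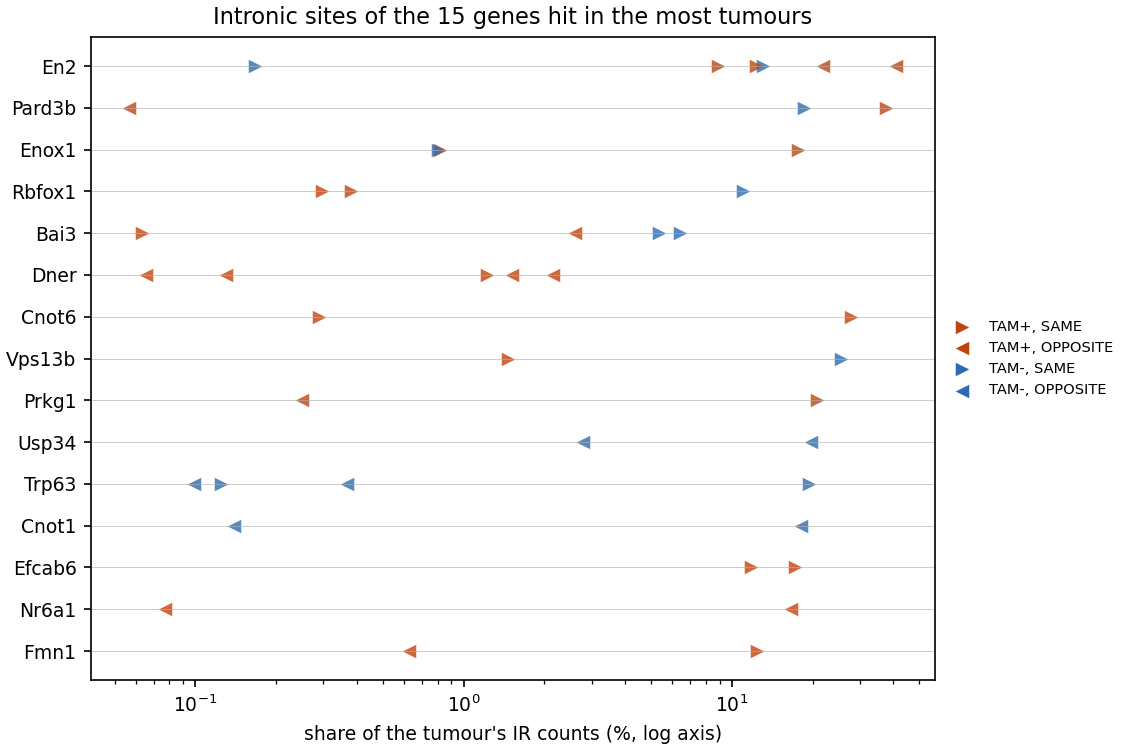
Share of the tumour's IR counts in percent (log axis) for each intronic site of the 15 genes chosen by the number of tumours and then the highest share. Triangles point right for sites along the gene and left for sites against it, in red for TAM+ and blue for TAM- tumours. Most of these genes, such as Pard3b, Cnot6 and Prkg1, have a site above 10% and a site below 1%.

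In 9 further genes 2 tumours carried sites. Cnot1, which encodes the scaffold of the CCR4-NOT complex, had 18.1% in intron 22 of TAM- tumour 38, with 49.9% of counts from the lesser end, and 0.140% in intron 1 of TAM- tumour 1, both against the gene. Its partner Cnot6 had 27.8% and 0.289% in TAM+ tumours 50 and 52, 4622 bp apart in intron 1 and both along the gene. Efcab6, which encodes an EF-hand protein, had 17.2% in TAM+ tumour 22 and 11.8% in TAM+ tumour 21, in introns 6 and 7, 9053 bp apart and along the gene. This was the only one of the 9 with over 10% in both tumours. The position of its site in tumour 22 was also that of the highest site of a tumour with no single arm, as described at the end. Nr6a1, which encodes an orphan nuclear receptor, had 16.6% and 0.0769% in TAM+ tumours 2 and 6, only 540 bp apart in intron 3 and both against the gene.

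Usp34, a deubiquitinase gene, had 19.6% and 2.79% in TAM- tumours 42 and 13, both against the gene. Vps13b, which encodes a lipid transfer protein of the Golgi, had 1.47% in TAM+ tumour 16 and 25.6% in TAM- tumour 40. Trp63, a relative of the tumour suppressor Trp53, had 19.4% in intron 1 of TAM- tumour 5, and 3 minor sites in TAM- tumour 44, 2 of which are a pair spaced by 117 bp. Prkg1, the gene of a cGMP-dependent protein kinase, had 20.8% and 0.251% in TAM+ tumours 53 and 40, 716289 bp apart. Fmn1, which encodes an actin-nucleating formin, had 12.4% and 0.625% in TAM+ tumours 38 and 30, 187132 bp apart.

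En2, a homeobox gene that patterns the midbrain and cerebellum, was the gene with sites in the most tumours. Its 6 sites lay in intron 1 between positions 28496384 and 28496605 of chromosome 5, the closest only 30 bp apart, and 4 pointed along the gene and 2 against it. Their shares were 41.0%, 21.8%, 12.3% and 8.86% in TAM+ tumours 33, 20, 2 and 47, against 13.04% and 0.167% in TAM- tumours 17 and 44. Before sites were credited, this stretch held 220 calls in 92 tumours, 57 TAM+ and 35 TAM-, and all 119 tumours had IR counts in En2. In tumour 20 only 62.0% of the counts of the site had its listed orientation. The site with the highest share was called in 83 tumours, and its own tumour held only 16.3% of its counts over all tumours. In control tumours 2 and 3, which were not compared, the highest site of the tumour was also in intron 1 of En2. It lay at position 28496494, the position of the site of tumour 20, and held 7.64% and 7.34% of IR counts. Counts at 5 of the 6 En2 sites were spread over tumours, with 3 or more tumours sharing them and each holding 50% or less, and no intronic site outside En2 was spread in this way. Outside En2 only 14 sites were called in more than 1 tumour, in each case with another tumour of the same lane.

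Called sites and positions below the call had similar intron numbers. Intron 1 held 193 of the 676 sites (28.6%), intron 2 held 95, intron 3 held 68, introns 4 to 10 held 192 and later introns 128, up to intron 49. Among 410297 intronic positions below the call in the same tumours, 29.2% were in intron 1. Per tumour, intron 1 held 27.2 ± 28.1% of called sites and 29.1 ± 1.01% of positions below the call (SD, n = 110), higher in 47 tumours and lower in 63 (two-sided sign-flip permutation test, p 0.468, adjusted p 0.832 over 5 tests within tumours). When each of the 904 calls was counted in every tumour that made it, intron 1 held 22.7 percentage points more of called sites (sign-flip permutation p 1e-05, the smallest these resamples give). With En2 left out of those calls, an alternative chosen after the data were seen, the difference was -3.63 (p 0.182). Between arms the share was 26.0 ± 26.2% in TAM+ tumours (n = 66) and 29.0 ± 31.0% in TAM- tumours (n = 44, permutation p 0.586, adjusted p 0.808). Among the 80 sites of at least 10%, 29 were in intron 1 (36.3%). These 29 include the En2 sites of 41.0%, 21.8% and 12.3% in TAM+ tumours and of 13.04% in a TAM- tumour. The share of 36.3% was not tested, because the 80 sites were chosen on height.

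**Figure D3:**
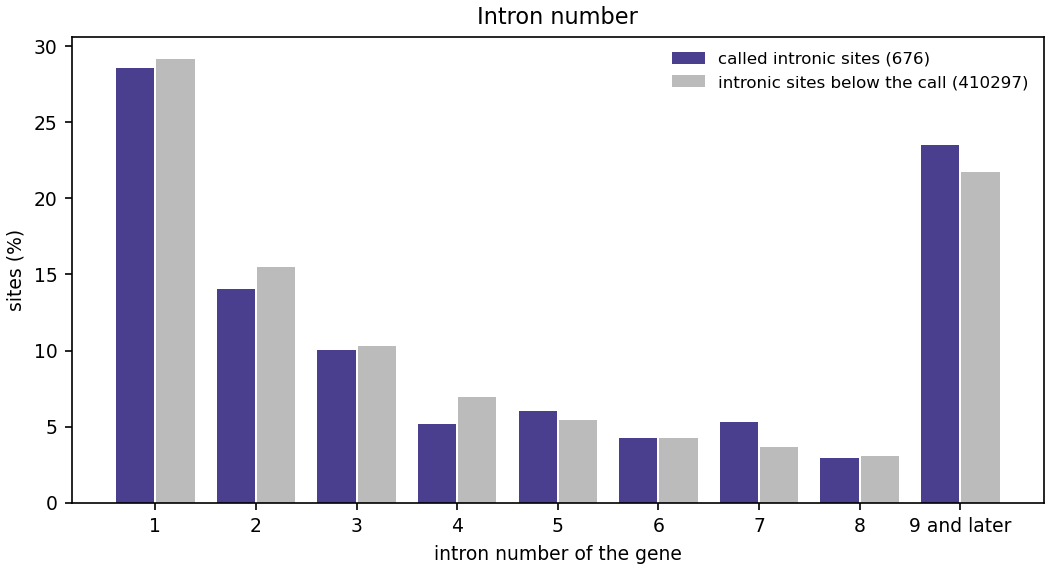
Percent of called intronic sites (purple, 676 sites) and of intronic positions below the call (grey, 410297 positions) by the number of the intron in its gene. The bars for intron 1 stand at 28.6% and 29.2%, and the 2 profiles lie close together from intron 1 to intron 9 and later.

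The table marks each position by whether an insertion there would disrupt the coding sequence. Of the 676 sites 578 (85.5%) were marked disrupt_CDS, against 84.6% of positions below the call, and 98 were marked not_disrupt_CDS. Of these 98, 65 were in intron 1, 25 in introns 2 and 3 and 8 further along the gene. The 80 sites of at least 10% had 60 marked disrupt_CDS, and the sites of Tnr, Cnot6 and Rbfox1 above 10% were among those marked not_disrupt_CDS.

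Sites pointed along and against the gene in similar numbers. The table lists 347 sites as SAME and 329 as OPPOSITE, with more SAME in 45 tumours, fewer in 48 and equal numbers in 17 (sign-flip permutation test, p 0.522, adjusted p 0.832). Per tumour 48.5 ± 33.5% of called sites and 48.8 ± 1.47% of positions below the call were SAME (n = 110, sign-flip permutation p 0.925, adjusted p 0.925). The share was 46.6 ± 33.1% with tamoxifen (n = 66) and 51.4 ± 34.3% without (n = 44, permutation p 0.464, adjusted p 0.808). The 193 sites in intron 1 were 96 SAME and 97 OPPOSITE. Among the 80 sites of at least 10%, 46 were SAME and 34 OPPOSITE. With every call counted, SAME sites exceeded OPPOSITE sites by 1.15 per tumour (sign-flip permutation p 4e-05), and with En2 left out of those calls by 0.182 (p 0.455).

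The orientation of a site was clear in most cases. In the median site 99.97% of counts had the listed orientation, and 16 sites had under 90%. Counts came from both SB ends at 509 sites, from IRL alone at 104 and from IRR alone at 63, and the lesser end held at least 10% of counts at 126 sites. At all 126 both ends gave the same orientation. At 314 sites the lesser end had counts but under 1%.

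Libraries that the site call did not use also found most of these sites. Within 100 bp of a called site the same tumour had JX counts at 507 sites (75.0%) and PB counts at 411 (60.8%), and neither at 139. TAM+ tumour 46 accounted for most of the rest, with JX counts at 5 and PB counts at 11 of its 147 sites. Without it, 94.9% of the 529 sites had JX counts, 75.6% had PB counts and 6 had neither. The JX libraries of tumour 46 held 190613 counts at 4376 positions, against medians of 362305 counts and 4728 positions per tumour. The part of JX depth was not tested. All 80 sites of at least 10% had JX counts, and 72 had PB counts.

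**Figure D4:**
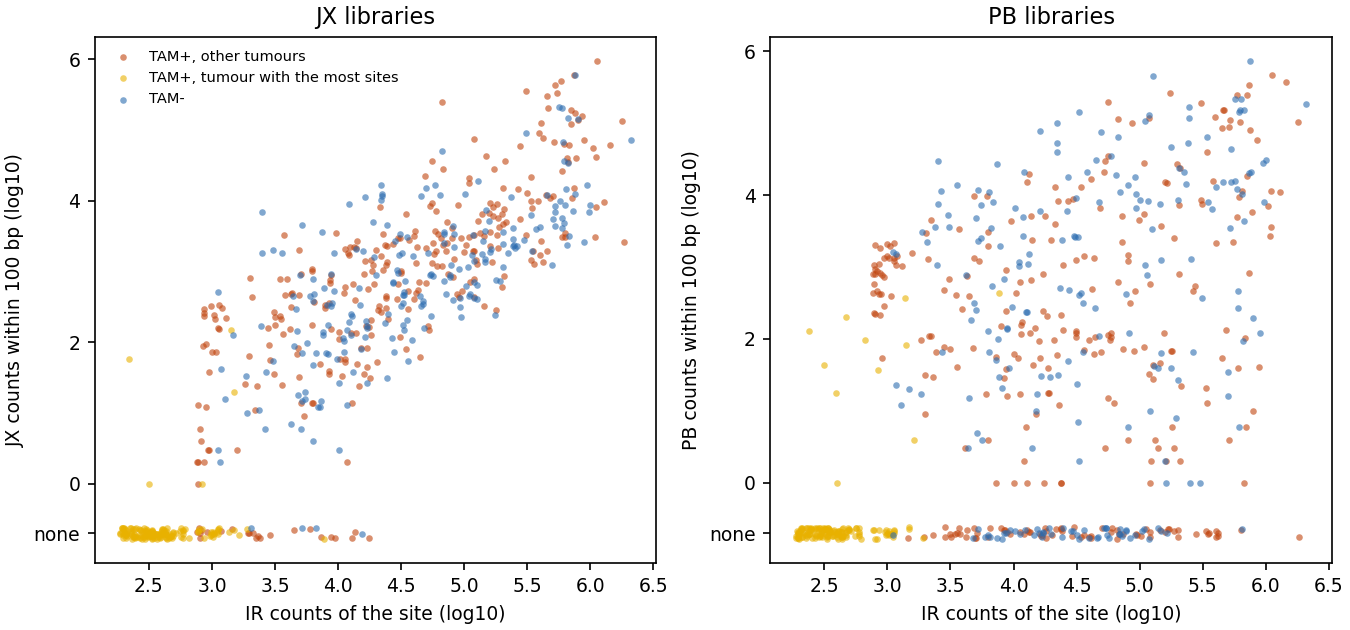
JX counts (left) and PB counts (right) of the same tumour within 100 bp of each intronic site, as log10, against the IR counts of the site, as log10, with sites lacking any count in the row marked none. Red points are TAM+ tumours other than tumour 46, yellow points are TAM+ tumour 46 and blue points are TAM- tumours. JX counts tend to be higher at sites with more IR counts, and most yellow points are in the row marked none.

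The shares with JX and PB counts differed between arms by less than the spread between tumours. JX counts were found at 94.8 ± 16.0% of a TAM+ tumour's sites (n = 66) and 97.2 ± 15.1% of a TAM- tumour's (n = 44, permutation p 0.447, adjusted p 0.808). For PB counts the shares were 75.0 ± 31.3% with tamoxifen and 73.5 ± 29.9% without (n = 66 and 44, permutation p 0.808, adjusted p 0.808). Without TAM+ tumour 46 the difference was -1.05 percentage points for JX (permutation p 0.711) and 2.49 for PB (permutation p 0.674). Within tumours, intronic sites were set against the other called sites of these chromosomes (n = 99). They had JX counts at 95.3 ± 16.4% against 96.1 ± 15.7% of the other sites, higher in 7 tumours, lower in 13 and equal in 79 (sign-flip permutation p 0.665, adjusted p 0.832). For PB counts they had 74.6 ± 29.5% against 69.9 ± 29.6%, higher in 43 tumours and lower in 27 (sign-flip permutation p 0.206, adjusted p 0.832). With every call counted this PB difference was 9.96 percentage points (p 0.00014), and with En2 left out of those calls it was 5.70 (p 0.122). As a background, other tumours of the same lane had JX counts near 41.8 ± 27.5% and PB counts near 9.68 ± 14.1% of a tumour's intronic sites (SD over 108 tumours).

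The listed orientation differed between the libraries. Of 487 sites with at least 10 JX counts, 390 had the same listed orientation in JX as in IR and 96 the other, at a median distance of 0 bp between the highest positions. Of 371 sites with at least 10 PB counts, 8 had the same orientation and 363 the other, at a median distance of 53 bp. What the listed orientation refers to in each kind of library is not stated in the labels, so the IR orientation is used throughout.

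The donor chromosome and the lane were compared in turn. Tumours with donor chromosome 10 had 5.57 ± 15.8 intronic sites (median 3, n = 90) and those with donor chromosome 7 had 6.03 ± 6.77 (median 4, n = 29, permutation p 0.908). The difference was -0.468 sites, and without TAM+ tumour 46, an alternative chosen after the data were seen, it was -2.06 (permutation p 0.0674). Within donor chromosome 10 the TAM+ minus TAM- difference in sites was 2.98 (permutation p 0.580), and within donor chromosome 7 it was -2.69 (permutation p 0.337). The difference between these was 5.68 (permutation p 0.292, adjusted p 0.811 over 7 tests). With tumours permuted within lanes the difference in sites was 1.04 (permutation p 0.739), with the TAM+ mean higher in 4 lanes and lower in 5. Within lanes, the TAM+ minus TAM- difference was -3.44 percentage points for the share of IR counts (permutation p 0.294), 2.73 for the intronic share (p 0.615), -6.17 for SAME (p 0.413), -5.15 for intron 1 (p 0.423), -4.17 for JX (p 0.229) and -0.64 for PB (p 0.923). The donor chromosomes were furthest apart in the share with PB counts, where TAM+ minus TAM- was -4.44 percentage points for donor chromosome 10 and 21.1 for 7 (permutation p of the difference 0.0645, adjusted p 0.451). Per covered length, sites were densest on chromosome 19 (28 sites, 1.40 times the mean of these chromosomes) and sparsest on chromosome 3 (37 sites, 0.710 times).

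Gene lists were described by counts, with no test, beside the 591 of 13863 genes (4.26%) that had intronic sites among all genes with intronic IR positions on these chromosomes. The number of positions below the call had a median of 11 for all genes and of 78 for the 591 genes. Its part in the counts below was not tested. Beside each list, its own median is given. Over all genes, intronic sites lay in 66 TAM+ and 44 TAM- tumours. Differences between the arms in the tumours of a list were not tested.

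The SHH pathway, which drives these tumours, had few sites of large share. Of 18 genes with intronic positions (median 37 below the call) 2 had a site (11.1%), both in TAM+ tumours. Smo, which encodes the membrane protein that turns the pathway on, had 4.90% in intron 1 of TAM+ tumour 60, along the gene, with 8858 JX and 68 PB counts. Hhip, which encodes a ligand-binding inhibitor, had 1.18% in intron 4 of TAM+ tumour 41, against the gene. Of 37 genes known from SHH medulloblastoma (median 54) 6 had sites (5 without TAM+ tumour 46), with a median share of 0.315%. The sites lay in 5 TAM+ tumours and 1 TAM- tumour. Beside Smo the 6 genes included Nfia, a transcription factor of granule neurons and glia, with 0.854% and 0.404% in TAM+ tumours 44 and 18. The adaptor Gab1 had 0.321% and 0.118% in TAM+ tumours 30 and 46.

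Chromatin and transcription factor genes came next. Of 42 chromatin regulators (median 91 below the call) 5 had sites (11.9%), and 4 were left without TAM+ tumour 46. Beside Prdm16, the SWI/SNF subunit gene Arid1a had 2.67% in TAM+ tumour 68, and its relative Arid2 had 0.298% in TAM- tumour 47. Of 39 transcription factor genes of the cerebellum and granule lineage (median 64) 7 had sites, in 8 TAM+ and 3 TAM- tumours. Without TAM+ tumour 46, 4 of the 7 were left. En2 made up 6 of the list's 13 sites, in 4 TAM+ and 2 TAM- tumours. Counts at 5 of these 6 sites were spread over tumours, as described above. Also on the list, Tcf12, a basic helix-loop-helix factor, had its only site in tumour 46. Of 26 cell cycle and DNA damage genes (median 22.5) only the fragile site gene Fhit had a site, of 2.04% in TAM+ tumour 35.

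Signalling genes followed. Of 50 genes of PI3K, RAS and growth signalling (median 76) 9 had sites (18%), in 4 TAM+ and 4 TAM- tumours. The stress kinase gene Mapk8 had 20.7% in intron 10 of TAM- tumour 8, and Pik3c2g, a class II PI3-kinase gene, had 13.6% in intron 9 of TAM- tumour 35. Erbb4, which encodes a neuregulin receptor, had 3.19% in TAM+ tumour 68. Of 29 Wnt and Notch genes (median 41) 4 had sites, among them the Wnt co-receptor gene Lrp6 with 5.50% in TAM- tumour 5, Gsk3b, a kinase gene of the beta-catenin destruction complex, with 0.938% in TAM- tumour 40, and the receptor gene Fzd3 with 0.358% in TAM+ tumour 26. Of 27 genes of cyclic nucleotide signalling (median 72) 4 had sites, in 5 TAM+ and 0 TAM- tumours. Besides Prkg1 these included the adenylyl cyclase gene Adcy8 with 0.251% in TAM+ tumour 41 and the phosphodiesterase gene Pde10a with 0.121% in TAM+ tumour 15.

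Very long genes, listed together with synaptic adhesion genes, had the highest share of genes with sites among the lists of over 2 genes. Of the 41 genes listed 19 had sites (46.3%), in 15 TAM+ and 3 TAM- tumours (17 genes without TAM+ tumour 46), with a median of 435 positions below the call per gene, the most of any list but the 2 genes described last. Sgcz, which encodes a sarcoglycan, had 11.2% and 10.8% at positions 39190066 and 38707784 of chromosome 8 in the same tumour, TAM+ tumour 41, both along the gene. Of 27 neurotransmitter receptor genes (median 119) 7 had sites (25.9%), and 3 were left without TAM+ tumour 46. The NMDA receptor gene Grin3a had 7.64% in TAM+ tumour 72, and the kainate receptor gene Grik3 had 1.43% in TAM- tumour 9.

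Adhesion and guidance genes included a leading site beside Cdh7. Of 22 cadherin and protocadherin genes (median 107) 3 had sites, and Cdh4 held 13.5% as the highest site of TAM- tumour 39, while Cdh13 had 0.0909% in TAM+ tumour 46. Of 36 axon guidance genes (median 117) 5 had sites, and 4 were left without TAM+ tumour 46. Plxna4, which encodes a semaphorin receptor, had 4.45% in TAM- tumour 6, the ephrin receptor gene Epha5 had 0.894% in TAM+ tumour 49 and 0.206% in TAM- tumour 44, and Sema3d had 0.760% in TAM+ tumour 62.

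Potassium channels are named in the study's title. Of 70 potassium channel genes (median 21) 5 had sites (7.14%), in 3 TAM+ tumours and 1 TAM- tumour, and 4 were left without TAM+ tumour 46. Kcnk2, a two-pore channel gene, had 4.81% in intron 3 of TAM+ tumour 12. Kcnip1, which encodes a channel-interacting protein, had 1.77% in intron 1 of TAM+ tumour 54. Both sites pointed against the gene. Of 23 calcium and sodium channel genes (median 118) 4 had sites, in 1 TAM+ and 3 TAM- tumours, and 2 were left without TAM+ tumour 46. Cacna1e, which encodes an R-type calcium channel, had 6.26% and 0.877% in TAM- tumours 28 and 3, both along the gene, Ryr3, a calcium release channel gene, had 0.469% in TAM- tumour 29, and Cacna1c had 0.200% in TAM+ tumour 46.

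Of the loci listed as open to wrong mapping, En2 and Sfi1 had intronic sites. Sfi1, a centrosome gene, had 5.99% in TAM+ tumour 26 and 3.09% and 2.13% in TAM+ tumour 31, all against the gene, in introns 9, 11 and 22. Both genes together had a median of 750 positions below the call.

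The threshold for calling a site cut through a continuous range. The lowest site kept by share of the highest site was in Nfib (1.00006%), followed by Espn (1.0025%), and the highest left out were in 9330182L06Rik (0.997586%) and Dnajc10 (0.997258%). Of the 676 sites 234 had 1% to 2% of the highest site, and the lowest count of any site was 188. No further filter was set on low values, so all 676 sites enter the values given.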

How the data were processed

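Genomic DNA of the tumours was sheared, joined to splinkerette adaptors, cut with BamHI and amplified from the SB ends, the PB ends or their boundary, per the labels' protocols. The authors deposited raw counts for each position of each library, 3961094 lines in 832 libraries of 9 lanes, in mm9 per the submitters' processing notes. The sources used here name no aligner, counting rule or annotation. Groups came from the authors' sample sheet, with libraries marked PT of TAM+ or TAM- mice. Each mouse counted as 1 replicate, with the counts of its IRL and IRR libraries added, and 5 control tumours and 8 with no single arm were not compared.

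Positions within 10 bp were joined and called at 10 counts and 1% of the highest site. Arms were compared by two-sided permutation tests of means (100000 resamples, smallest p 1e-05), sites within tumours by sign-flip tests, donor differences with 20000 resamples, and genes by Fisher's exact test, with Benjamini-Hochberg adjustment, in Python 3.11.15 with NumPy 2.4.6, SciPy 1.17.1 and pandas 2.3.3. The permutation test of means, the sign-flip test and Fisher's exact test were tried on simulated data. The tests within lanes and the donor tests of 20000 resamples were not. Of 24 alternatives tried, the effect is given at the end. Genes named are those with sites in most tumours (15), the 12 highest sites and up to 3 per list. Some genes that this rule names are not reported here. Further genes (Dhx40, Nfib, Espn, 9330182L06Rik, Dnajc10) were chosen after their values were seen, as was the description of paired sites. The sites and lists were chosen with earlier results of these data known. Symbols are those of the table, of which 532 were current in the GRCm38.p6 name table, 55 matched by 1 synonym and 4 did not match.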

Additional observations from a re-analysis of the deposited data

Results flagged for a closer look

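Among tumours outside the comparison, some stood far from the rest of their kind, a test that chance meets in about 1 group in 20. Of 5 control tumours, number 5 had 555 called sites and 178 intronic sites, and the other 4 had 10 to 35 and 5 to 15. It had only 253248 IR counts, all 178 of its intronic sites had IR counts in tumours compared, 169 of them in the same tumour, and 82 of the 119 tumours shared over 50% of them. Of 8 tumours with no usable arm, number 8 had 428 called and 151 intronic sites, against 2 to 34 and 0 to 12 in the others, with 247817 IR counts, and 39 of its intronic sites had IR counts in tumours compared. The part of depth in these numbers was not tested. The highest site held 34.7% of IR counts in control tumour 1 (Syt9), against 3.30% to 9.50% in the other 4. It held 79.3% in tumour 1 with no usable arm (Iqgap2), against 2.33% to 35.6% in the other 7. Both sites are on chromosomes outside this description.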

How the results depend on the processing

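Values are TAM+ minus TAM-, called minus compared sites, or donor chromosome 10 minus 7, in percentage points or sites, and changes of sign below rest on p-values above the threshold unless one is given as passing. No paired analysis was possible because the labels give lanes of 1 group and the arms share no replicate numbers. Leaving out single tumours was done for the tumours named only. At 0.1% of the highest site (6044 sites) the signs turned for SAME between arms (4.76), SAME minus OPPOSITE (-0.286), intron 1 between arms (2.58) and against positions below the call (0.0027), SAME against those positions (1.30), PB between arms (-4.54) and sites by donor (9.02). At 5% (311 sites) they turned for sites per tumour (-0.252) and PB between arms (-4.08), and sites by donor passed the threshold (-1.42, permutation p 0.0202). With every call counted, SAME minus OPPOSITE (1.15) and PB against other sites (9.96) passed, intron 1 (22.7, p 1e-05) and SAME (9.70, p 0.00027) against positions below the call turned and passed, and intron 1 (2.22) and PB (-0.851) between arms turned. Of these, without En2 only SAME against positions below the call stayed turned (0.384, p 0.906). With sites of both ends only, JX against other sites turned (0.380). Chosen after seeing the data, leaving out TAM+ tumour 46 turned sites per tumour (-0.293), and leaving out lane 1 turned SAME minus OPPOSITE (-0.0707) and sites by donor (0.256). Within donor chromosome 10, SAME against positions below the call (0.523) and PB between arms (-4.44) turned. Within donor chromosome 7, sites per tumour (-2.69), share of IR counts (0.738), intronic share (-1.81), intron 1 against positions below the call (3.50), JX (2.62) and PB (-3.27) against other sites turned. PB between arms also turned at 10 PB counts (-5.88), within 1000 bp (-0.591) and within lanes (-0.639). The cause of these turns was not tested. Minimums of 5 and 50 counts gave the main values by construction, since the lowest count of a site was 188, and bear on nothing. No genes were called in any setting, but a gene with sites in 3 tumours could not have passed.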

Other observations

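In tumour 6 with no usable arm, the highest site held 20.3% of IR counts and lay in intron 6 of Efcab6, at position 83827432 of chromosome 15. That tumour is listed in lane 9. TAM+ tumour 22, listed in lane 3, had its Efcab6 site at the same position, with 17.2%. Whether these libraries share DNA was not tested.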
